A study of Mus musculus with 39 samples.

Results

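The 10 genes described here are 8 immediate early genes (Fos, Fosb, Jun, Junb, Egr1, Atf3, Ier2 and Nr4a1) and the stress-inducible heat shock genes Hspa1a and Hspa1b. They were named as a list and matched by gene ID among the 49585 genes counted in every library, and all 10 passed the filter on low counts that left 16327 genes for testing. Their messages were measured by strand-specific mRNA sequencing of intestinal tumours and the neighbouring tissue of C57BL/6 mice carrying the Apc Min/+ allele, a truncating allele of the Wnt pathway gene Apc that gives rise to intestinal adenomas. The study compared mice homozygous for the ex allele of Adam17 (ex/ex), a hypomorphic allele, with mice with wild-type Adam17 (WT). The 39 libraries were 17 ex/ex tumours, 12 WT tumours, 6 samples of ex/ex non-tumour tissue and 4 of WT non-tumour tissue. All 4 groups carried Apc Min/+, so there was no tissue from Apc wild-type mice. The labels name no animal, age or sex, and tumours of 1 animal may be among the replicates.

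Immediate early genes are transcribed within minutes of a stimulus such as a growth factor, without new protein synthesis. Signals that run through MAP kinases reach factors already bound at their promoters, and ADAM17 feeds this route by releasing ligands of the EGF receptor from the cell surface. Heat shock factor 1 does the same for Hspa1a and Hspa1b when proteins misfold. The messages of both groups are short-lived and also respond to tissue handling and dissociation.

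Gene counts per library ran from 5668185 to 11112321, apart from WT non-tumour replicate 1, which held 438639 counts and in which 1 count was worth 6.06 CPM (counts scaled to a common library size with TMM factors). That library also had 21.1% mitochondrial counts (at most 4.95% in the others) and 34.8% in Gm42418 (at most 3.52% in the others). Adam17 itself, the check of the genotype labels, was at 14.5 to 33.5 CPM in ex/ex tumours and 38.5 to 86.0 CPM in WT tumours, with no overlap. In non-tumour tissue it was at 9.67 to 14.6 CPM in ex/ex and at 48.5 CPM or more in WT replicates 2 to 4, while the library labelled WT non-tumour replicate 1 had 1 Adam17 count. Epithelial markers were present in every group, with a summed level of 8 genes between 502 and 21270 CPM over the tumours. By Xist and Ddx3y, 5 libraries looked male, 3 ex/ex tumours and 2 samples of ex/ex non-tumour tissue, and no WT library did. Summed over 8 B cell markers, tumours split into 18 libraries above 1000 CPM and 11 below, a division chosen after the data were seen. There were 15 ex/ex and 3 WT tumours above it and 2 ex/ex and 9 WT tumours below it.

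The stretches around the starts of Fos, Jun and the heat shock genes are shown for the promoter elements they hold and for the near identity of Hspa1a and Hspa1b, which bears on their counts. RefSeq windows on GRCm38.p6 from 250 bases before to 50 bases after the start were used for 8 of the 10 genes, and not for Egr1 and Ier2. Capitals mark TATAAA in Fos, GAANNTTC (the paired unit of a heat shock element) and CCAAT in Jun, and GAANNTTC and ATTGG, which is CCAAT on the other strand, in Hspa1a and Hspa1b.
Fos (chr12:85473640-85473939, plus strand): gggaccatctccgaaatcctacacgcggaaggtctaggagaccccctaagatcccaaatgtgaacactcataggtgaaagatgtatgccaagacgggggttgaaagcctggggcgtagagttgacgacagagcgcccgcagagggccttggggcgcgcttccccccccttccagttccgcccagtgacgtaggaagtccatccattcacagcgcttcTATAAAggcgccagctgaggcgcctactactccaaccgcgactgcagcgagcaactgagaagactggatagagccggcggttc
Jun (chr4:95052173-95052472, minus strand): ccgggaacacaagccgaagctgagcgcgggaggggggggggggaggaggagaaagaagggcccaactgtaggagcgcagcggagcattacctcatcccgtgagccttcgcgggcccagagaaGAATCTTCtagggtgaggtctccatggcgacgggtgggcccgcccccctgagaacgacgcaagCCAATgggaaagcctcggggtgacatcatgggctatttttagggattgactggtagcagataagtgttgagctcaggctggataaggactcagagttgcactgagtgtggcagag
Hspa1a (chr17:34972107-34972406, minus strand): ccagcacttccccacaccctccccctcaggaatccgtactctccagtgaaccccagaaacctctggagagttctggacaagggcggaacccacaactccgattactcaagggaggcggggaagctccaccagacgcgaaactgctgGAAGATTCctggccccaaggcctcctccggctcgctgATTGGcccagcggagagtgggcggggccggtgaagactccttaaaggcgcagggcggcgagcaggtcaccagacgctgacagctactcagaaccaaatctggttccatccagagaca
Hspa1b (chr17:34959189-34959488, minus strand): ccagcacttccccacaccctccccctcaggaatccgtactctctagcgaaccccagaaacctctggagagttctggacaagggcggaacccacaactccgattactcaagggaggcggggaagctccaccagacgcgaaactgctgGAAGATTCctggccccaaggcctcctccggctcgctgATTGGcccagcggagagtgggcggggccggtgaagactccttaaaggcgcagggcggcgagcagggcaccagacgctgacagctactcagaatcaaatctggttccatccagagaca

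In Fos the TATA box stood at -33 to -28 from the start. Both heat shock genes held the same GAANNTTC match at -104 to -97 and the same reversed CCAAT at -67 to -63, and the 2 windows were identical at 296 of 300 positions (98.7%). Jun also held a GAANNTTC match, at -128 to -121. Of 32851 promoter windows of this length, 7.86% held GAANNTTC on either strand, 37.4% held CCAAT on either strand and 8.32% held TATAAA on the gene's strand. The CArG box, the CRE (TGACGTCA) and the AP-1 motif (TGANTCA), searched on both strands, had no match in the 8 windows. They were in 1.63%, 1.79% and 7.81% of all windows. Sites upstream of the windows and sites that depart from the searched patterns were not looked for. The promoters may therefore still hold such elements. The matched letters did not overlap each other.

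The identity of Hspa1a and Hspa1b continues into the transcripts and sets a limit on their values. Of the 50-base words in their exons, 66.3% for Hspa1a (chr17:34969190-34972156, minus strand) and 62.3% for Hspa1b (chr17:34956436-34959238, minus strand) also occur in transcripts of other genes, among them each other, Hspa1l, Gm10501 and Gm20481. The deposited counts leave out reads that align to several places, so both genes are under-counted and reads could have been assigned between them unevenly. The other 8 genes had at most 5.83% of such words. These were in Jun (chr4:95049034-95052222, minus strand), whose single exon overlaps the antisense gene Junos, and in Junb (chr8:84974484-84978718, minus strand), which overlaps the antisense gene Prdx2. On the other strand Hspa1a also overlaps Gm20481 and Atf3 overlaps Gm24748. Prdx2 was at 68.3 to 295 CPM and Junos at 0 to 1.61 CPM. Fos lies at chr12:85473890-85477273 and Nr4a1 at chr15:101254269-101274795 on the plus strand, and Fosb at chr7:19302696-19310051, Atf3 at chr1:191170296-191218039 and Ier2 at chr8:84661331-84662852 on the minus strand. Egr1 is on chromosome 18.

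Per kilobase of exon, the medians of the 10 genes ranged widely. Those of Hspa1a and Hspa1b are under-estimates, since reads shared with other genes were left out while the full exon length was used. In ex/ex tumours the median level was highest for Junb at 37.0 CPM per kb, followed by Fos at 27.9, Ier2 at 24.4, Jun at 24.2, Atf3 at 9.05, Egr1 at 7.69 and Nr4a1 at 3.49 CPM per kb. Hspa1b, Fosb and Hspa1a had medians of 0.606, 0.546 and 0.349 CPM per kb. The ranges over the 17 tumours of every pair of neighbours in this order overlapped. In WT tumours Junb, Fos and Jun had nearly equal medians of 49.96, 49.7 and 47.7 CPM per kb, ahead of Ier2 at 32.1, Atf3 at 17.9, Egr1 at 8.06 and Nr4a1 at 4.24. Hspa1b, Fosb and Hspa1a came last there too, at 1.5, 1.13 and 0.545 CPM per kb.

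**Figure D1:**
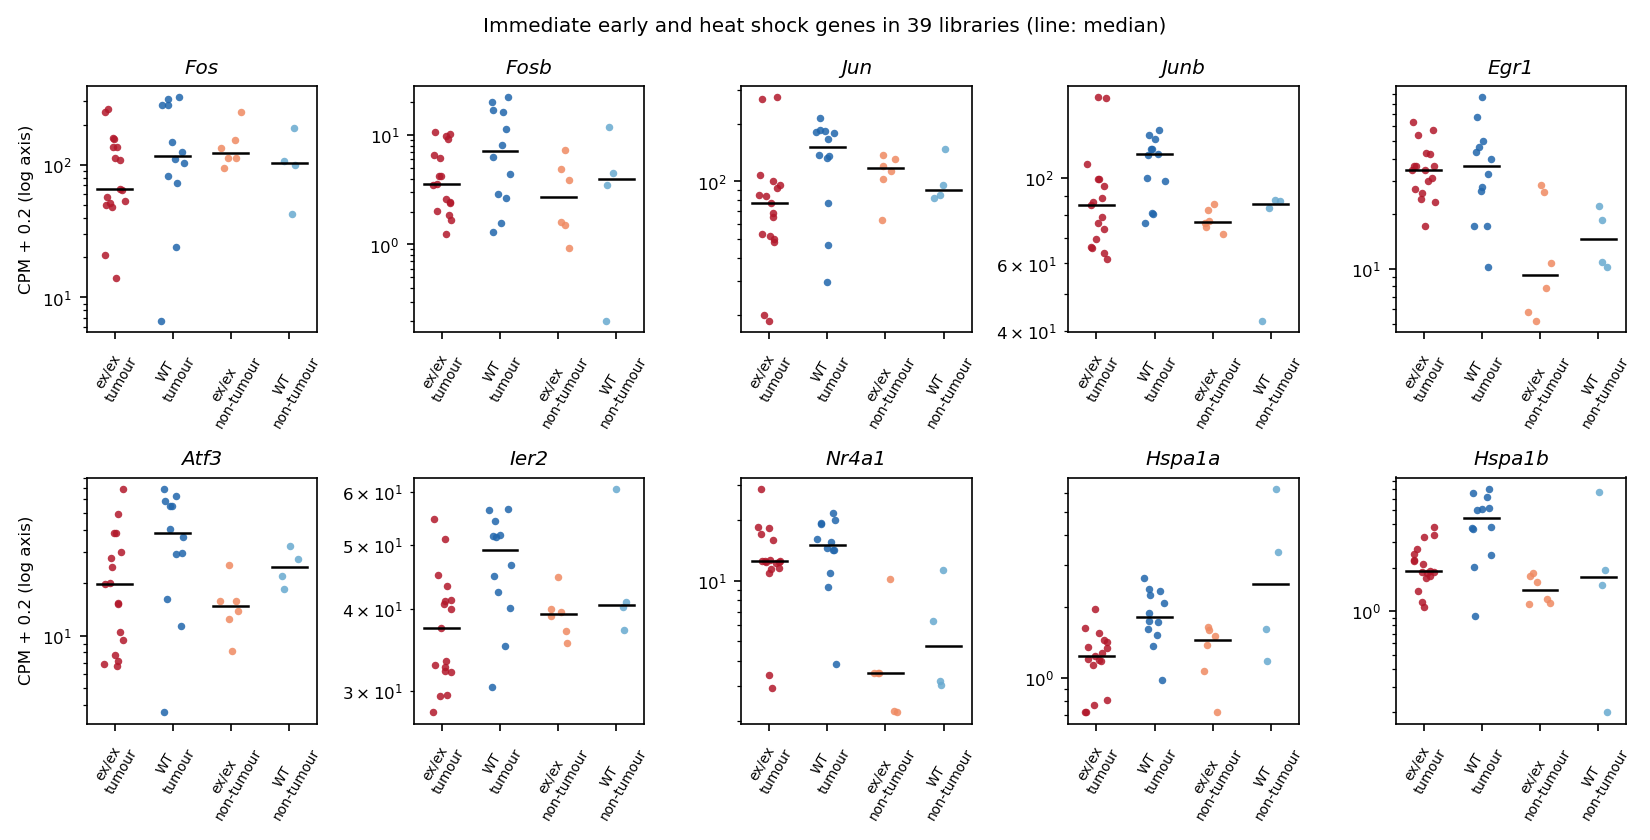
CPM plus 0.2 on a log axis for the 10 genes, 1 panel each, with 1 point per library and a line at the median of each group (17, 12, 6 and 4 libraries). The medians of Egr1 and Nr4a1 are higher in tumours of both genotypes than in their non-tumour tissue, and Fos spreads 19.2-fold among ex/ex and 49.8-fold among WT tumours.

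Comparing ex/ex with WT tumours asks whether tumours that form with little ADAM17 carry less immediate early message. All 10 log2 fold changes were below 0, and 3 genes passed the test (edgeR quasi-likelihood test, adjusted p under 0.05 over 16327 genes): Hspa1b, Hspa1a and Ier2 were lower in ex/ex tumours. Of all genes tested, 18.0% were lower and 15.2% higher in this comparison, beside the 3 of 10 here. The median log2 fold change was -0.60 over the 10 genes and -0.01 over all genes. In bulk tissue, fewer cells of a type and less RNA per cell cannot be told apart.

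Hspa1b, which encodes an inducible HSP70 chaperone, ran from 0.867 to 3.63 CPM with a median of 1.70 in ex/ex tumours, against 0.727 to 6.84 CPM with a median of 4.21 in WT tumours. The groups overlapped, but the 9 WT tumours poor in B cell genes all had at least 3.53 CPM, near the highest ex/ex value. Its log2 fold change was -1.06 ± 0.25 (SE, adjusted p = 0.00158). Hspa1a, the neighbouring gene for the same chaperone, had 0.520 to 1.75 CPM with a median of 1.04 in ex/ex tumours and 0.781 to 2.45 CPM with a median of 1.62 in WT tumours, a log2 fold change of -0.70 ± 0.20 (adjusted p = 0.00675). These values rest on 5 to 37 reads per library in ex/ex tumours and 8 to 55 in WT tumours for the 2 genes. With the reads of both summed as 1 gene the log2 fold change was -0.95 ± 0.20 (adjusted p = 5.28e-04).

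Ier2, which encodes a small nuclear immediate early protein, had 27.7 to 54.5 CPM with a median of 37.2 in ex/ex tumours and 30.3 to 56.5 CPM with a median of 48.8 in WT tumours, so the groups shared nearly their whole range. The log2 fold change was -0.31 ± 0.10 (adjusted p = 0.0178).

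The AP-1 genes did not pass the test. Fos, which pairs with Jun proteins to form AP-1, had 13.8 to 263.6 CPM with a median of 65.7 in ex/ex tumours and 6.47 to 322 CPM with a median of 117 in WT tumours (log2 fold change -0.61 ± 0.40, adjusted p = 0.236). Both the lowest and the highest Fos values of all tumours were WT. Its relative Fosb had 1.05 to 10.5 CPM in ex/ex tumours and 1.11 to 22.1 CPM in WT tumours (-1.003 ± 0.42, adjusted p = 0.0609). Jun, the partner of Fos, had 18.5 to 276 CPM with a median of 77.1 in ex/ex tumours and 29.5 to 213 CPM with a median of 152 in WT tumours (-0.60 ± 0.30, adjusted p = 0.124), and the 2 highest Jun values, 269 and 276 CPM, were both ex/ex. Junb, the AP-1 subunit that can restrain Jun, had 61.5 to 162 CPM with a median of 85.1 in ex/ex tumours and 76.3 to 133 CPM with a median of 115 in WT tumours (-0.25 ± 0.13, adjusted p = 0.139). Atf3, a stress-induced partner of Jun, had 6.504 to 68.6 CPM with a median of 19.5 in ex/ex tumours and 3.44 to 69.0 CPM with a median of 38.5 in WT tumours (-0.75 ± 0.35, adjusted p = 0.0892). The groups overlapped for all 5 of these genes, and over most of their range for Fos, Jun, Junb and Atf3. For Fosb the highest value was 10.5 CPM in ex/ex and 22.1 CPM in WT tumours, with medians of 3.41 and 7.05 CPM.

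The zinc finger factor Egr1 and the nuclear receptor Nr4a1 had the smallest differences. Egr1 ran from 16.98 to 63.5 CPM in ex/ex tumours and from 9.96 to 86.6 CPM in WT tumours (log2 fold change -0.10 ± 0.27, 95% interval -0.64 to 0.44, adjusted p = 0.809). Nr4a1 had 2.70 to 28.4 CPM with a median of 12.2 in ex/ex tumours and 3.63 to 21.5 CPM with a median of 14.9 in WT tumours (-0.17 ± 0.27, 95% interval -0.71 to 0.37, adjusted p = 0.66). Both intervals hold differences of either sign.

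Hspa1b, Hspa1a and Ier2 stayed lower in all 39 edgeR fits that left out 1 library (highest adjusted p = 0.00456, 0.0171 and 0.0388). The count of genes called lower rose from 3 when some single tumours were left out. It was 7 without ex/ex tumour replicate 2, 6 without ex/ex tumour replicate 1 or WT tumour replicate 4, and 5 without WT tumour replicate 1. The share of all genes called moved as well, to 39.9% without ex/ex tumour replicate 2, 39.3% without ex/ex tumour replicate 1, 45.9% without WT tumour replicate 4 and 41.3% without WT tumour replicate 1, beside 33.3% with all libraries. Without the 5 libraries that look male the count was 7, beside 49.4% of all genes called, with Fosb (-1.21, adjusted p = 0.0249), Jun (-1.10, adjusted p = 0.00104), Junb (-0.42, adjusted p = 0.00191) and Atf3 (-0.94, adjusted p = 0.0341) added. The 2 ex/ex tumours with few B cell markers, replicates 1 and 2, both look male, so sex and B cell content cannot be told apart in them.

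Markers of other cell types moved with these genes. The summed B cell markers had a median of 2374 CPM in ex/ex tumours (12.95 to 3941) and 18.9 CPM in WT tumours (9.97 to 3443). Of the 8 markers, 2 were higher in ex/ex and none lower. Blk was at 0 in some ex/ex tumours, and Pax5 in some WT tumours. The summed epithelial markers had medians of 8131 CPM in ex/ex tumours (2647 to 21270) and 16410 CPM in WT tumours (502 to 19280), with 4 of 8 lower in ex/ex. Smooth muscle markers had medians of 704 CPM in ex/ex tumours and 1607 CPM in WT tumours, with 4 of 7 lower. Red blood cell markers had medians of 6.07 CPM in ex/ex tumours (2.83 to 15.9) and 126 CPM in WT tumours (29.2 to 254.1), with 5 of 5 lower, and 5 of 6 endothelial, 4 of 4 mast cell, 3 of 6 fibroblast and 2 of 5 enteric neuron and glia markers were lower too. Neutrophil markers summed to 2.28 to 7.98 CPM in ex/ex tumours and 2.64 to 9.60 CPM in WT tumours, with 2 of 4 lower in ex/ex and S100a8 and S100a9 at 0 in some of either. Of 6 myeloid markers 2 were higher and 1 lower. The part of red blood cell, endothelial, mast cell, fibroblast, enteric neuron and glia, neutrophil and myeloid content in the differences of the 10 genes was not tested.

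With the B cell level as a covariate none of the 10 genes passed the edgeR test (3 had an unadjusted p under 0.05), while 21.6% of all genes still did. The sign then turned for 6 genes, none of them past the threshold. The log2 fold change was 1.14 ± 0.47 for Fos (adjusted p = 0.0761), 0.66 ± 0.26 for Jun (adjusted p = 0.0661), 0.90 ± 0.54 for Fosb, 0.78 ± 0.40 for Atf3, 0.22 ± 0.12 for Junb and 0.03 ± 0.10 for Ier2. Hspa1a, Hspa1b and Egr1 stayed negative at -0.33 ± 0.25, -0.20 ± 0.32 and -0.285 ± 0.37. Nr4a1 moved further below 0, to -0.838 ± 0.37 (adjusted p = 0.0957). With the epithelial level as the covariate the same 3 genes stayed lower: Hspa1b at -0.78 ± 0.23, Hspa1a at -0.60 ± 0.20 and Ier2 at -0.24 ± 0.09 (adjusted p = 0.00898, 0.0164 and 0.0383), beside 32.1% of all genes. With the smooth muscle level only Hspa1b did, at -0.87 ± 0.28 (adjusted p = 0.0259), beside 19.0% of all genes.

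Within the tumours on 1 side of the 1000 CPM division the picture differed by gene. B cell markers still varied within each set, from 1386 to 3941 CPM in the rich ex/ex tumours. In the poor set ex/ex replicates 1 and 2 had 351.5 and 12.95 CPM, and the WT tumours 9.97 to 130.5 CPM. Among the 15 ex/ex and 3 WT tumours rich in B cell genes, none of the 10 passed in edgeR (0 at an unadjusted p under 0.05), beside 1.61% of all genes. Jun had a median of 67.9 CPM in these ex/ex tumours and 46.1 CPM in these WT tumours, and Fos had 64.6 CPM in ex/ex and 23.9 CPM in WT. Among the 2 ex/ex and 9 WT tumours poor in B cell genes, 18.7% of all genes passed, and so did 3 of the 10. Jun was higher in ex/ex, at 269 and 276 CPM against 133 to 213 CPM in WT (log2 fold change 0.67 ± 0.22, adjusted p = 0.0397). Junb was higher too, at 161 and 162 CPM in ex/ex against 98.3 to 133 CPM in WT (0.44 ± 0.14, adjusted p = 0.0345). Nr4a1 was lower, at 2.70 and 3.19 CPM in ex/ex against 3.63 to 21.5 CPM in WT (-2.22 ± 0.67, adjusted p = 0.0294). In all 3 cases the 2 ex/ex tumours lay outside the WT range, and these are the 2 that look male.

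**Figure D2:**
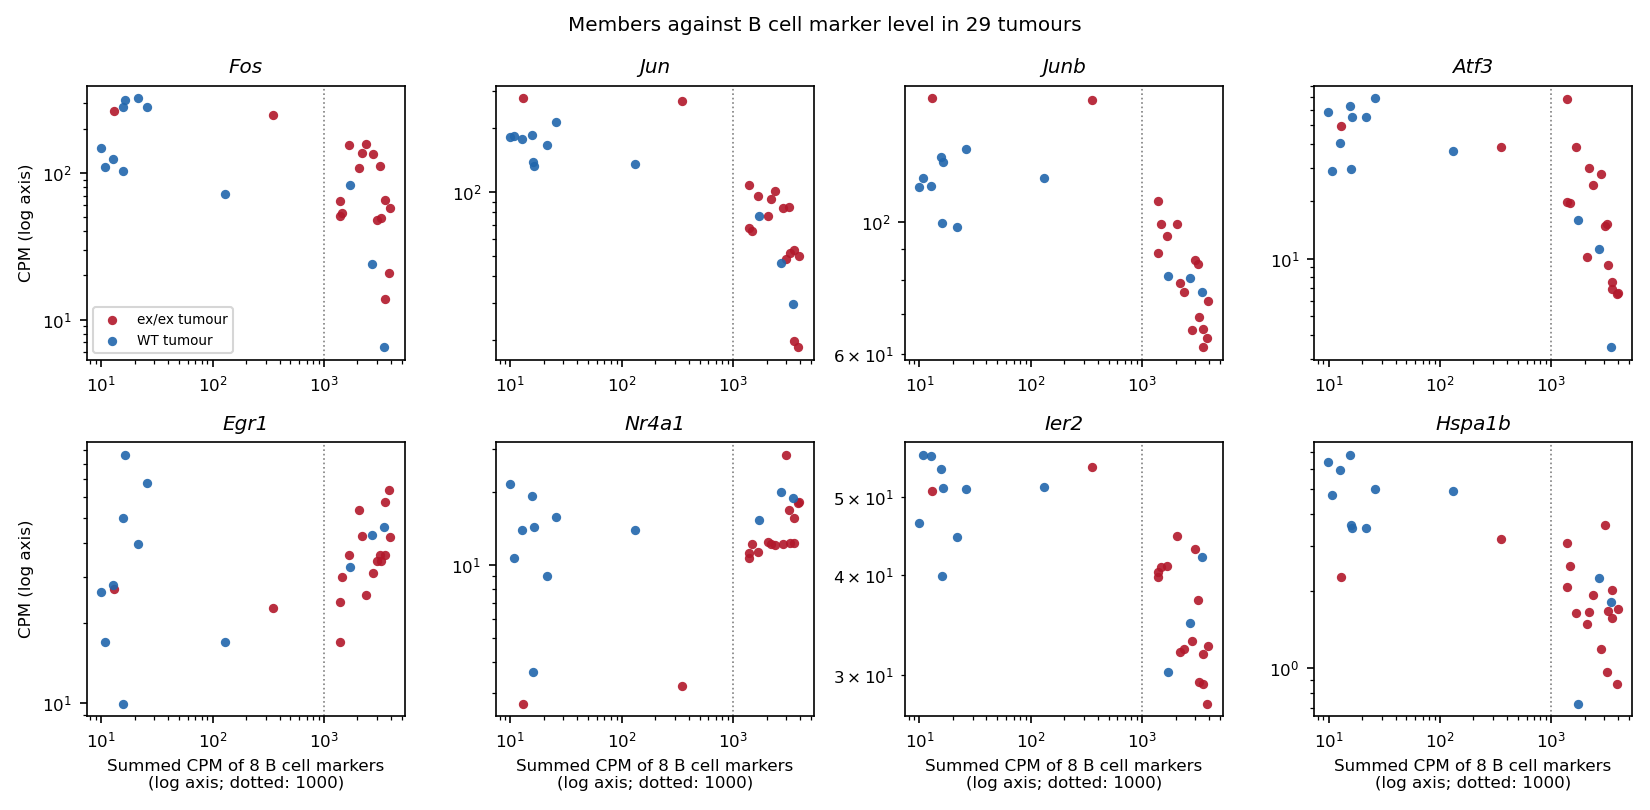
CPM of 8 of the genes (log axis) against the summed CPM of 8 B cell markers (log axis) in 29 tumours, coloured by genotype, with a dotted line at 1000 CPM. The medians of Jun, Junb and Atf3 are lower to the right of the line in both genotypes, those of Egr1 and Nr4a1 are not, and the 2 ex/ex tumours to the left have the highest Jun and Junb and the lowest Nr4a1.

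**Figure D3:**
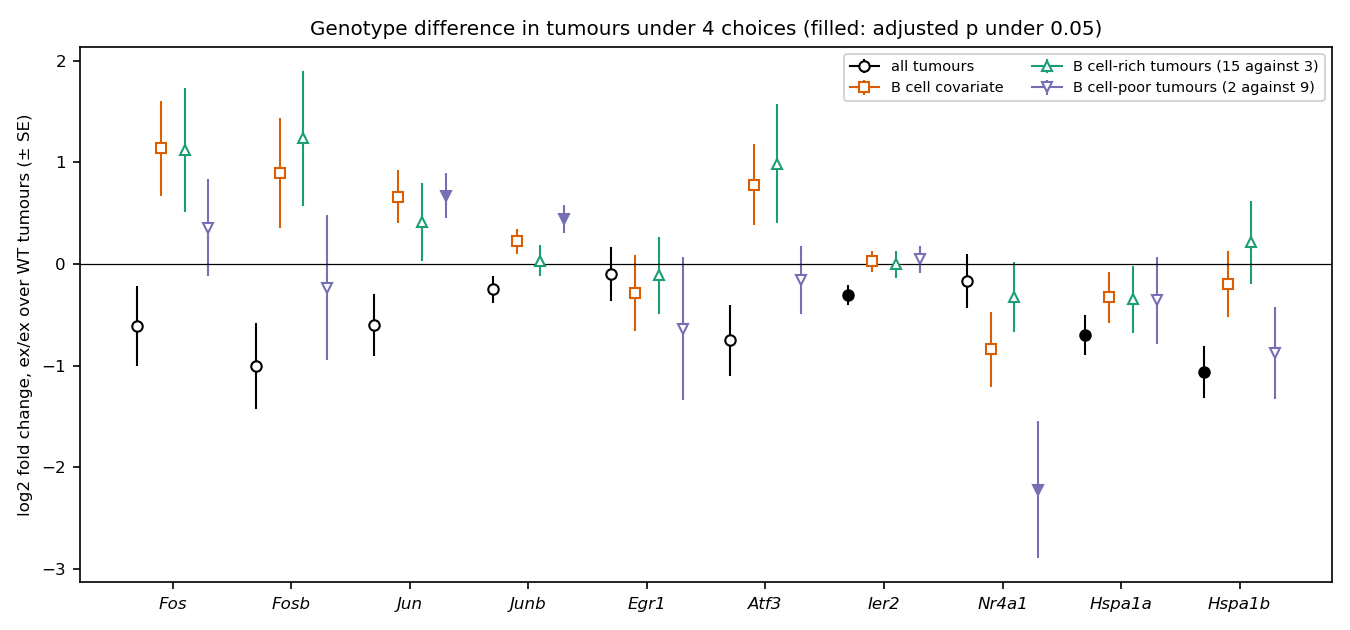
Log2 fold change of ex/ex over WT tumours (± SE) for each gene in the fit of all tumours, with a B cell covariate, and within tumours rich (15 ex/ex and 3 WT) or poor (2 ex/ex and 9 WT) in B cell genes; filled symbols have an adjusted p under 0.05. All 10 points of the first fit lie below 0, and those of Fos, Jun and Junb lie above 0 in the other 3.

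Tumours were next set against non-tumour tissue of the same genotype, with the same tumour libraries as above. In ex/ex mice Nr4a1 and Egr1 rose and none of the 10 genes fell, beside 23.8% of all genes higher and 23.3% lower. Nr4a1 had 2.70 to 28.4 CPM with a median of 12.2 in ex/ex tumours, against 3.28, 2.01, 3.27, 9.96, 2.04 and 3.27 CPM in ex/ex non-tumour tissue. Of the 17 tumours, 15 were above every non-tumour sample, and the exceptions were the 2 tumours poor in B cell genes. The log2 fold change was 1.73 ± 0.38 (adjusted p = 5.51e-04). Egr1 had 16.98 to 63.5 CPM with a median of 34.5 in ex/ex tumours, against 10.5, 5.58, 4.98, 7.62, 25.9 and 28.6 CPM in ex/ex non-tumour tissue (1.38 ± 0.37, adjusted p = 0.00287). Non-tumour replicates 5 and 6 were inside the tumour range and the other 4 below it.

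The other 8 genes differed less between ex/ex tumours and ex/ex non-tumour tissue. Their log2 fold changes ran from -0.48 ± 0.49 for Fos to 0.63 ± 0.35 for Hspa1b, and the lowest adjusted p was 0.133. Fos had 94.5 to 247.7 CPM with a median of 123 in non-tumour tissue, inside the range of the ex/ex tumours. Jun had 63.0 to 138 CPM in non-tumour tissue, also inside the tumour range.

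The estimated rises of Nr4a1 and Egr1 differed with the tumours read, and the difference between the subsets was not tested. All 8 B cell markers and 5 of 6 T cell markers were higher in ex/ex tumours than in ex/ex non-tumour tissue, where the summed B cell level was 26.7 to 50.7 CPM. Lower in the ex/ex tumours were 5 of 6 endothelial, 5 of 5 enteric neuron and glia, 4 of 5 red blood cell and 2 of 6 fibroblast markers, and their part was not tested. In the 15 tumours rich in B cell genes Nr4a1 and Egr1 were still higher (1.87 ± 0.31, adjusted p = 1.62e-05, and 1.43 ± 0.32, adjusted p = 4.81e-04) and Jun was lower (-0.72 ± 0.27, adjusted p = 0.0249), beside 62.6% of all genes called. In the 2 tumours poor in B cell genes Nr4a1 was at -0.42 ± 0.65 and Egr1 at 0.83 ± 0.68, and neither passed. Jun (1.29), Junb (1.05), Atf3 (1.55) and Ier2 (0.43) did, beside 13.8% of all genes. With the B cell level as a covariate Nr4a1 was at 0.88 ± 0.49 (adjusted p = 0.2) and Egr1 at 1.13 ± 0.48 (adjusted p = 0.0867). Then 6 other genes passed instead, among them Atf3 (2.32 ± 0.51) and Fosb (2.51 ± 0.66), beside 21.6% of all genes. The 15 rich tumours had B cell levels of 1386 to 3941 CPM, far from those of non-tumour tissue. These adjusted estimates therefore extrapolate along a fitted slope.

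In WT mice none of the 10 genes passed the test between tumours and non-tumour tissue, where 1.90% of all genes were higher and 3.15% lower. Egr1 had 9.96 to 86.6 CPM with a median of 36.2 in WT tumours, against 18.2, 9.997, 10.6 and 21.8 CPM in WT non-tumour tissue (1.42 ± 0.49, adjusted p = 0.0776). Nr4a1 had 3.63 to 21.5 CPM in WT tumours, against 6.06, 2.83, 2.96 and 11.1 CPM in WT non-tumour tissue (1.40 ± 0.50, adjusted p = 0.0901). At an unadjusted p under 0.05 there were 3 genes, these and Junb (0.46 ± 0.21). DESeq2 called 2 of the 10 higher, beside 7.41% of all genes called, and limma-voom with quality weights 8, beside 37.5%. WT non-tumour replicate 1 had 1 Nr4a1 read, and replicate 4 stood apart with 1028 CPM of endothelial and 1155 CPM of red blood cell markers; without these 2 libraries Nr4a1 was at 2.34 ± 0.64 (adjusted p = 0.0383), and 2.71% of all genes passed. In the 3 WT tumours rich in B cell genes Egr1 (1.51 ± 0.50, adjusted p = 0.0192) and Nr4a1 (1.71 ± 0.48, adjusted p = 0.00651) were higher than in non-tumour tissue, where 42.0% of all genes passed. In the 9 WT tumours poor in them Jun (0.69 ± 0.19, adjusted p = 0.0255) and Junb (0.55 ± 0.12, adjusted p = 0.0074) were, beside 11.3% of all genes.

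In non-tumour tissue, ex/ex and WT did not differ for any of the 10 genes at the threshold, beside 1.42% of all genes that did. Hspa1b (-1.24 ± 0.48, adjusted p = 0.251) and Hspa1a (-0.79 ± 0.37, adjusted p = 0.471) were the 2 genes with an unadjusted p under 0.05. Hspa1b had 0.919 to 1.64 CPM in ex/ex non-tumour tissue, against 0, 1.72, 1.31 and 6.53 CPM in WT non-tumour tissue, so the WT mean rests on replicate 4; without replicates 1 and 4 the estimate was -0.27 ± 0.53. Fos was at 0.33 ± 0.70 and Jun at 0.11 ± 0.54. DESeq2 and limma-voom also called none, beside 1.68% and 9.78% of all genes. All 5 red blood cell markers were lower in ex/ex than in WT non-tumour tissue, and their part was not tested.

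Whether the tumour difference itself depended on genotype was tested as an interaction. None of the 10 genes passed, beside 0.202% of all genes, and none had an unadjusted p under 0.05. The estimates ran from -0.93 ± 0.81 for Fos to 0.33 ± 0.58 for Nr4a1, and that for Egr1 was -0.05 ± 0.57. The 95% interval was -1.19 to 1.10 for Egr1 and -0.85 to 1.499 for Nr4a1, so differences of either sign lay within it. DESeq2 called none of the 10, beside 0.802% of all genes. Limma-voom called 5 lower, beside 51.8% of all genes called. Egr1 and Nr4a1 passed in ex/ex and not in WT mice, but the difference between the genotypes did not pass.

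**Figure D4:**
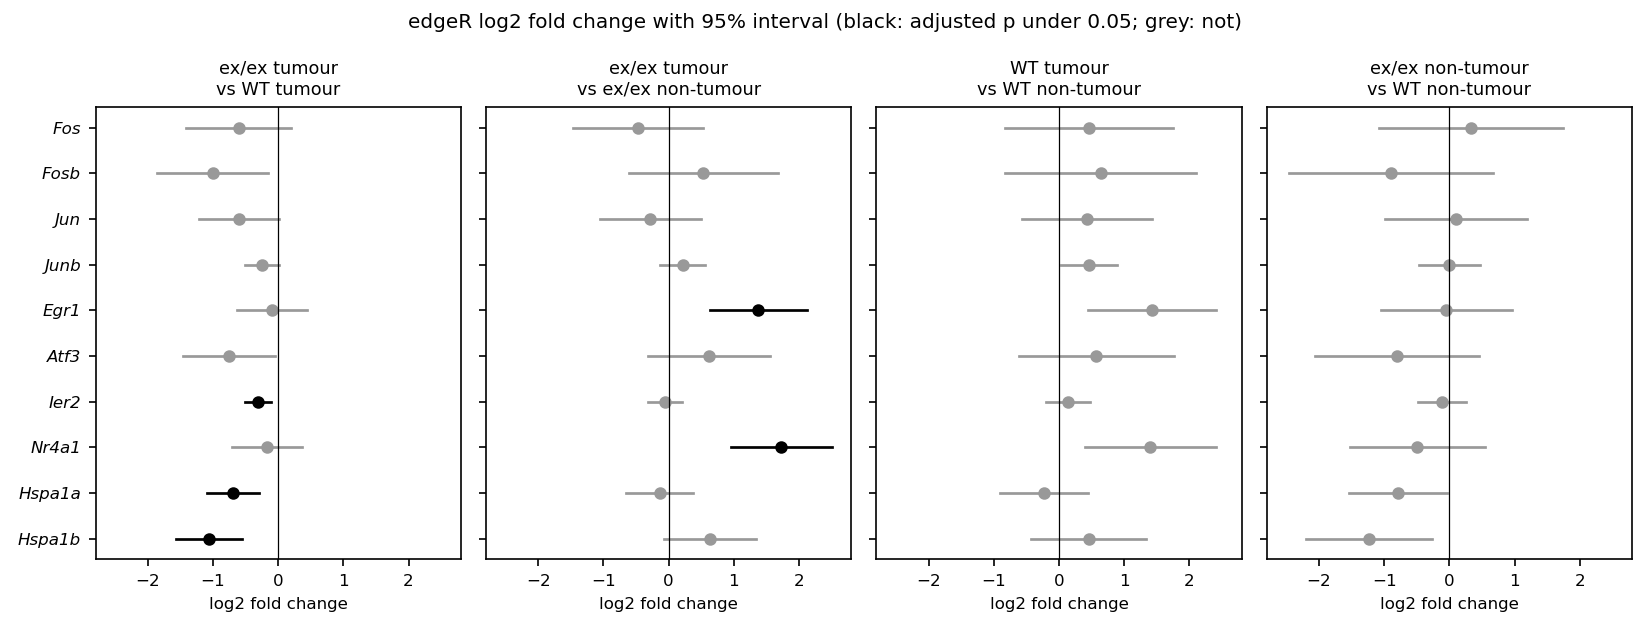
Log2 fold change with its 95% interval for the 10 genes in 4 comparisons; black marks an adjusted p under 0.05. All estimates of ex/ex over WT tumours lie below 0, and Egr1 and Nr4a1 lie near 1.4 or above in both tumour against non-tumour comparisons.

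The 10 genes differed widely in how much they varied between libraries of 1 group. The biological coefficient of variation (the square root of edgeR's dispersion) was 0.757 for Fosb, 0.713 for Fos, 0.630 for Atf3 and 0.557 for Jun, against a median of 0.324 over all genes tested, and 90.8%, 89.2%, 85.3% and 79.9% of genes had a lower dispersion. Egr1 and Nr4a1 were near 0.49. Junb, Hspa1a and Ier2 were below the median at 0.249, 0.234 and 0.189. Among WT tumours Fos varied 49.8-fold between the lowest and the highest library, and Ier2 1.87-fold. These spreads take tumours rich and poor in B cell genes together. The lowest WT value of Fos, 6.469 CPM, was in replicate 4, which is rich in them. In the 9 WT tumours poor in them Fos ran from 71.95 to 321.9 CPM.

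Within tumours of 1 genotype on 1 side of the B cell division, some of the genes varied together. Pearson correlations of log2 CPM were computed separately in the 15 ex/ex tumours rich in B cell genes and the 9 WT tumours poor in them, since pooled tumours form separate clusters. Of 150 relations tested by 2-sided permutation, with p adjusted over all of them, Fos and Jun had r = 0.905 and rho = 0.843 in the ex/ex tumours (adjusted p = 0.00337 and 0.00937), and r = 0.753 without the 2 outermost tumours. Fos and Fosb had r = 0.792 (rho 0.736, adjusted p = 0.009 and 0.028). Fosb and Atf3 had r = 0.708 (rho 0.782, adjusted p = 0.0422 and 0.0163). Junb and Ier2 had r = 0.880 (rho 0.839, adjusted p = 0.00337 and 0.00937; 0.920 without 2 tumours).

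Egr1 did not go with Fos in the ex/ex tumours (r = -0.377, rho = -0.186, permutation adjusted p = 0.404 and 0.667), and r was 0.214 without the 2 outermost tumours. In the 9 WT tumours Fos and Egr1 had r = 0.876 and rho = 0.817 by exact permutation (adjusted p = 0.0422 and 0.0808), and Fos and Fosb r = 0.869 and rho = 0.867 (exact permutation, adjusted p = 0.051 and 0.0451). Fos and Jun, by contrast, had r = 0.309 there (rho 0.133, exact permutation adjusted p = 0.6 and 0.82), and 0.801 without the 2 outermost tumours. The difference between the 2 sets of tumours was not tested, and they differ in genotype and in composition alike.

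Marker levels were related to several of the genes as well. In the 15 ex/ex tumours the summed epithelial markers had r = 0.882 with Jun (rho 0.782, permutation adjusted p = 0.00337 and 0.0165), 0.841 with Atf3 (rho 0.886, adjusted p = 0.00337 and 0.006) and 0.743 with Junb (rho 0.750, adjusted p = 0.0243 and 0.0225). Their relation with Egr1 was negative, at r = -0.791 (rho -0.707, permutation adjusted p = 0.009 and 0.0446). The summed B cell markers were negatively related to Junb (r = -0.815, rho -0.800, permutation adjusted p = 0.009 and 0.0144) and Atf3 (r = -0.766, rho -0.807, permutation adjusted p = 0.0208 and 0.0144). Nr4a1 followed them in rank (rho 0.796, adjusted p = 0.0144) but not in Pearson's r (0.607, permutation adjusted p = 0.0795). Leaving out 2 tumours gave 0.708, 0.829, 0.614 and -0.624 for Jun, Atf3, Junb and Egr1 with the epithelial markers, and -0.785 and -0.738 for Junb and Atf3 with the B cell markers. In the 9 WT tumours poor in B cell genes none of these relations passed by exact permutation. There the epithelial markers had r = -0.307 with Jun, -0.197 with Junb, 0.223 with Atf3 and 0.18 with Egr1. The B cell markers had r = 0.095 with Junb, -0.073 with Atf3 and 0.019 with Nr4a1. What part composition has in the relations between the genes was not tested.

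**Figure D5:**
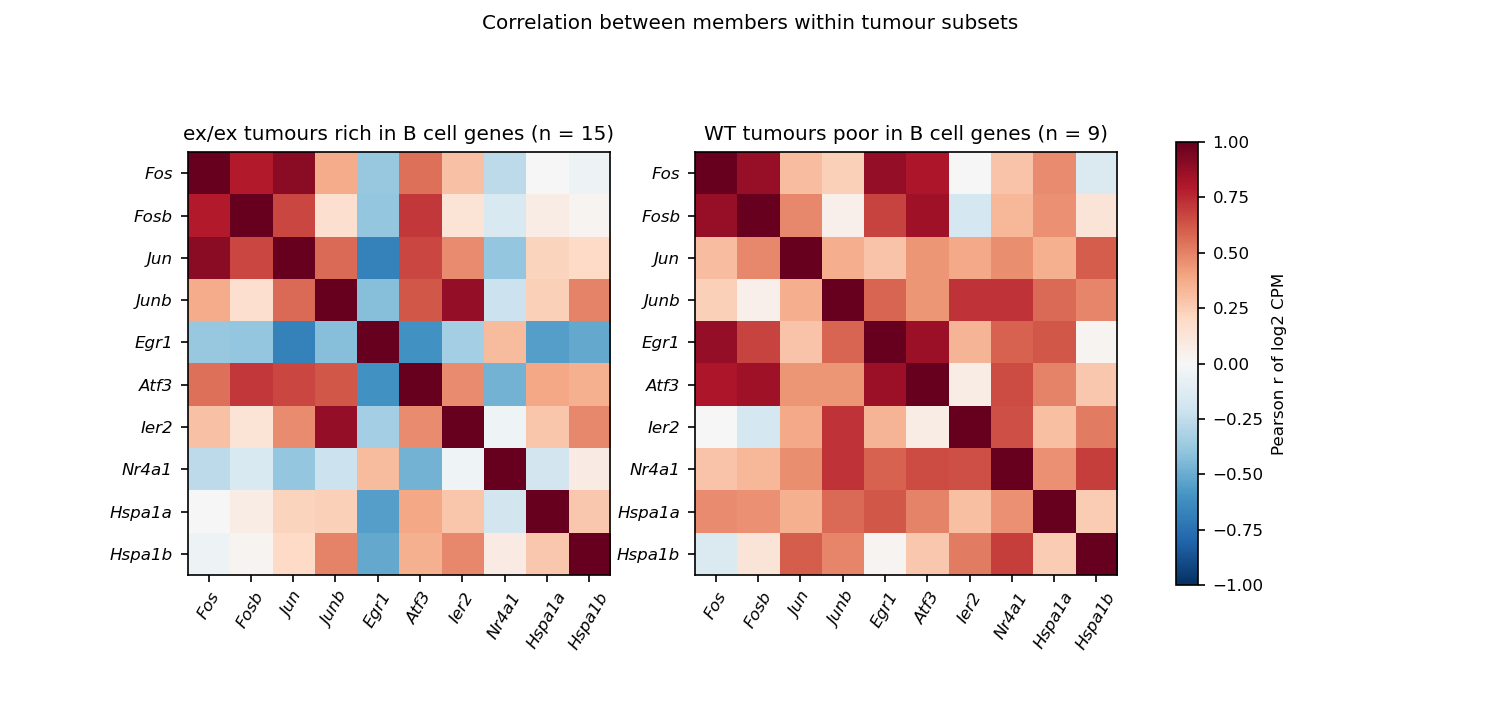
Pearson r of log2 CPM between the 10 genes in 15 ex/ex tumours rich in B cell genes (left) and 9 WT tumours poor in them (right). In the left panel r is positive among Fos, Fosb, Jun and Atf3 and negative between each of them and Egr1. In the right panel r of Egr1 with Fos, Fosb and Atf3 is positive. Of 45 pairs, 4 positive and 0 negative ones had a permutation adjusted p under 0.05 on the left, and 1 and 0 on the right.

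Over the 29 tumours, after the mean of each genotype was subtracted, the genes with the most similar pattern were named as a description. Hbegf, a ligand of the EGF receptor that ADAM17 sheds, was nearest to Fos (r = 0.949) and to Fosb (0.896). Next to Fos came Anxa4, Ifi27l2b, Smlr1 and Cdk18. The prostaglandin receptor gene Ptger4 was nearest to Atf3 (0.938), followed by Epha2, Tmem63b, Cldn4 and Pcx, and was second for Fosb, ahead of Abhd2, Gprc5a and Por. Jun was nearest to Btbd3 (0.955), Nck2, Furin, Kcnj2 and Ptpn3. Nr4a1 was nearest to Utp20 (0.871), Nolc1, Ctps, Myc and Mybbp1a. Junb was nearest to Sertad1 (0.918), Ier2 to Nt5c (0.870) and Hspa1b to Morc4 (0.852). The nearest genes of Egr1 (Evc2, 0.666) and Hspa1a (Rtf2, 0.648) were less similar, and the median r over 12958 candidate genes lay between -0.04 and 0.11 for each of the 10. These libraries share their composition differences, so no p is given.

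Relatives of the 10 genes did not all take the same side between ex/ex and WT tumours. Of 15 tested relatives of the AP-1, EGR and NR4A families, 4 fell and 1 rose (median log2 fold change -0.20), where 18.0% of all genes were lower and 15.2% higher. Fosl1, the FOS-like AP-1 subunit FRA-1, was at most 0.478 CPM in ex/ex tumours and had a median of 1.70 CPM in WT tumours (0 to 6.65), with a fitted log2 fold change of -5.24 ± 0.64 (adjusted p = 1.13e-07) that depends on the prior count. Nr4a2, a sister of Nr4a1, fell by 1.06 on the log2 scale, to a median of 1.72 CPM in ex/ex tumours against 3.71 CPM in WT tumours, and the small MAF gene Mafg fell by 0.66. Egr3, a sister of Egr1, rose by 1.81 ± 0.51 (adjusted p = 0.00712). Its medians were 5.77 CPM in ex/ex tumours (0 to 10.34) and 0.395 CPM in WT tumours (0 to 5.9). The part of B cell content in these differences was not tested.

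Against ex/ex non-tumour tissue, 5 of these 15 rose and 1 fell in ex/ex tumours, where 23.8% of all genes were higher and 23.3% lower. Egr3 (5.21 ± 0.96) and Egr2 (4.2 ± 0.90) rose most, Egr2 with 0.142 to 18.2 CPM in ex/ex tumours and 0.146 to 0.873 CPM in ex/ex non-tumour tissue. Egr3 had medians of 5.77 CPM in ex/ex tumours and 0 CPM in ex/ex non-tumour tissue, so its fitted change depends on the prior count. The part of B cell content in these 2 rises was not tested. Nr4a3 rose by 1.80 ± 0.47, in the direction of Nr4a1, and Nr4a2 fell by 1.19. In WT mice Mafg rose (0.98 ± 0.20, adjusted p = 0.00292) and no relative fell, beside 1.90% of all genes higher and 3.15% lower.

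Of 31 other immediate early genes, 10 fell and 5 rose in ex/ex against WT tumours (median -0.07), beside the 18.0% and 15.2% of all genes. Phlda1 fell by 3.16, with 3.33 to 13.2 CPM in ex/ex tumours and 6.36 to 117 CPM in WT tumours (adjusted p = 3.12e-09). Ier3 fell by 2.23, Ier5l by 1.93 and Klf10 by 1.01, and the MAP kinase phosphatase gene Dusp1, which dampens the pathway, fell by 0.66 (adjusted p = 0.0157). Zfp36, which encodes a protein that destabilises immediate early messages, was at 0.12 ± 0.16 and did not pass. Against ex/ex non-tumour tissue 8 rose and 1 fell in ex/ex tumours, beside 23.8% and 23.3% of all genes. Ier5 (0.85), Csrnp1 (1.84), Dusp2 (5.55) and Gadd45b (1.24) had the smallest p, while Dusp1 (-0.15), Zfp36 (0.07) and Ier3 (-0.50) did not pass. In WT mice Ier5 (0.80) and Btg2 (0.59) rose, and Ier3 (0.85), Zfp36 (0.35) and Dusp1 (0.38) did not pass. Dusp2 had medians of 44.6 CPM in ex/ex tumours and 0.827 CPM in ex/ex non-tumour tissue, beside the B cell values given above, whose part was not tested.

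Of 23 tested chaperones and heat shock factors, 6 fell and 3 rose in ex/ex against WT tumours (median 0.03), beside the 18.0% and 15.2% of all genes. The co-chaperone Bag3 (-0.95 ± 0.19, adjusted p = 1.68e-04) and the small heat shock genes Hspb1 (-0.86 ± 0.20) and Cryab (-0.84 ± 0.23) fell. Chordc1 (0.26) and Hsph1 (0.42 ± 0.15, adjusted p = 0.0316) rose. The constitutive Hspa8 (0.10) and the co-chaperone Dnajb1 (0.04) did not pass. Against ex/ex non-tumour tissue 5 rose and 4 fell, beside 23.8% and 23.3% of all genes, with Hspa2 at 1.89 ± 0.31, Chordc1 at 0.38, Hspd1 at -0.66 and Fkbp4 at -0.56, while Hspa8 (-0.25), Hsph1 (0.39), Dnajb1 (0.03) and Hspb1 (0.11) did not pass. In WT mice none passed, with Hspb1 at 0.49, Hsph1 at 0.20, Hspa8 at -0.10 and Dnajb1 at -0.07. Smooth muscle markers, 4 of 7 lower in ex/ex tumours, moved with Hspb1 and Cryab, and their part was not tested.

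Of 15 genes of the ER stress and integrated stress response, 5 fell and 1 rose in ex/ex against WT tumours, beside 18.0% and 15.2% of all genes, with Asns at -0.52, Pdia4 at -0.48, Sesn2 at -0.30 and Herpud1 at 0.56. Against ex/ex non-tumour tissue 4 fell and none rose, beside 23.3% and 23.8% of all genes: Xbp1 (-0.70), Chac1 (-1.33), Herpud1 (-0.60) and Dnajb9 (-0.47). Of 19 kinases and factors upstream of the immediate early genes, 2 rose and 1 fell in ex/ex against WT tumours, no larger a share than among all genes, with Creb1 at 0.50, Rps6ka5 at 0.50 and Crem at -0.41. Against non-tumour tissue 5 rose and 5 fell in ex/ex mice, near the 23.8% and 23.3% of all genes, among them Elk4 (0.74) and Mrtfa (0.98) upward and Mrtfb (-0.59) and Mapk9 (-0.40) downward. In WT mice Elk4 rose (0.50) and Mapk9 (-0.43), Atf2 (-0.39) and Rps6ka5 (-0.95) fell. No gene of these 5 lists passed between ex/ex and WT non-tumour tissue or in the interaction.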

How the data were processed

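The authors deposited 1 table of whole-number read counts per gene for each of 39 libraries, unnormalised. Per the labels' protocols the libraries were strand-specific and made with a TruSeq stranded mRNA kit. The tools were TopHat2 2.0.14, Trimmomatic 0.36 and HTSeq on build GRCm38, per the submitters' processing notes. Not given in the sources used here: HTSeq's strand setting and annotation release. Symbols and coordinates came from GENCODE M21, which matched 49326 of 49585 gene IDs. Library totals exclude HTSeq's summary lines, in which reads without a feature made up 3.00 to 13.3%, ambiguous reads 0.203 to 0.842% and reads that were not unique 29.1 to 56.5%.

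All 39 libraries entered 1 edgeR 4.0.16 quasi-likelihood fit with 4 groups (R 4.3.3, TMM, filterByExpr, 16327 genes, common dispersion 0.188), and p was adjusted by Benjamini-Hochberg over these genes with a threshold of 0.05. CPM uses TMM-scaled library sizes, and log2 CPM a prior count of 2. The SE was taken as the size of the log2 fold change divided by the root of its F statistic. For Ier2, Hspa1a and Hspa1b in some comparisons edgeR's p is held up by its Poisson bound and is larger than the SE implies. The fit recovered known changes in simulated counts drawn independently from its own average levels and dispersions. Such counts hold no B cell clusters and no shared animals, so they check the procedure and not the calls. Alternatives used limma 3.58.1 and DESeq2 1.42.0. Correlations were tested by 2-sided permutation with numpy 2.4.6 (ranks from scipy 1.17.1), by 100000 resamples for 15 tumours and exactly for 9. They were planned over all 17 ex/ex and 12 WT tumours, but tumours fell into 2 clusters, so they were computed within clusters, which was decided after the data were seen.

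The 10 genes, the gene lists and the markers were chosen with earlier results of these data known. The text names all 10 genes, per list up to 4 genes with the smallest p past the threshold plus Dusp1, Zfp36, Ier3, Hspa8, Hsph1, Dnajb1 and Hspb1, and the 5 genes nearest each of the 10. Groups came from the labels. Replicate numbers follow accession order and pair nothing, and since samples may share animals, p-values speak only for the spread among them. No pair of libraries in a group agreed within sampling noise (lowest chi-square per degree of freedom 2.01).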

Additional observations from a re-analysis of the deposited data

Results flagged for a closer look

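Of 20 sets of values (10 genes in each non-tumour group), 3 held a library that stood apart from the rest of its group by Dixon's test at the 95% level, which flags about 1 in 20 groups by chance. Junb in WT non-tumour replicate 1 was at 42.39 CPM, against 83.4 to 87.3 CPM in the other 3 libraries. Ier2 in the same library was at 60.56 CPM, against 36.9 to 40.7 CPM. These values rest on 7 and 10 reads in the shallowest library. Nr4a1 in ex/ex non-tumour replicate 4 was at 9.958 CPM from 68 reads, against 2.01 to 3.28 CPM in the other 5.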

How the results depend on the processing

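No paired analysis was possible because the labels name no animal and replicate numbers were given in accession order. The count of genes lower in ex/ex than WT tumours, 3 as reported, was 8 with limma-voom, 7 without the libraries that look male, 1 with the smooth muscle covariate and 0 with the B cell covariate, with B cell and epithelium covariates together, or in B cell-rich tumours. In B cell-poor tumours 1 was lower and 2 higher. Leaving out 1 library gave 3 to 7. Over all genes, 5429 of 16327 were called in either direction as reported, 11850 with limma-voom and 8048 of 16284 without the libraries that look male. With the smooth muscle covariate 3098 of 16327 were called, with the B cell covariate 3522 and with both covariates 1344. B cell-rich tumours gave 260 of 16168 and B cell-poor tumours 2976 of 15952. For ex/ex tumours over ex/ex non-tumour tissue, the 2 higher genes became 4 with library totals, the epithelium covariate or B cell-poor tumours, 6 with the B cell covariate, 3 with only the 2 groups compared (Hspa1b added at 0.648, adjusted p = 0.0417) and 1 with both covariates. Limma-voom and B cell-rich tumours each gave 1 lower. Over all genes, 7685 of 16327 were called as reported, 7447 with library totals and 8342 with the epithelium covariate. The B cell covariate gave 3519 of 16327, both covariates 2283 and limma-voom 11797. With only the 2 groups compared 7865 of 15130 were called. B cell-poor tumours gave 2197 of 15952 and B cell-rich tumours 10119 of 16168. For WT tumours over WT non-tumour tissue, 0 became 8 with limma-voom, 2 with DESeq2, library totals, the epithelium covariate, both covariates or either tumour subset, and 1 with the B cell covariate, without WT non-tumour replicates 1 and 4, or without the libraries that look male. Leaving out 1 library gave 0 to 1. Over all genes, 825 of 16327 were called as reported, 6126 with limma-voom and 865 with library totals. The epithelium covariate gave 2361 of 16327, the B cell covariate 1928 and both 2635. DESeq2 gave 1160 of 15647, B cell-rich tumours 6789 of 16168 and B cell-poor tumours 1802 of 15952. Without WT non-tumour replicates 1 and 4 there were 461 of 17010, and without the libraries that look male 898 of 16284. In the interaction limma-voom gave 5 lower, beside 8459 of 16327 genes called. Library totals moved the median log2 fold change of all genes to 0.243 in ex/ex and 0.385 in WT tumours over non-tumour tissue. The tumour subsets and the joint covariates were chosen after seeing the data.

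Signs turned as follows (log2 fold change); the cause was not tested. For ex/ex over WT tumours, Egr1 was 0.017 with library totals, 0.029 with limma-voom and 0.015 without male-looking libraries, and Nr4a1 0.070 and 0.003 in the last 2. With the B cell covariate Fos was 1.137, Fosb 0.897, Jun 0.664, Junb 0.222, Atf3 0.780 and Ier2 0.026. With both covariates these were 0.660, 0.401, 0.308, 0.119, 0.187 and 0.025. With the epithelium covariate Fos was 0.280. In B cell-rich tumours Fos was 1.122, Fosb 1.235, Jun 0.417, Junb 0.033, Atf3 0.987 and Hspa1b 0.214. In B cell-poor tumours Fos was 0.359, Jun 0.674, Junb 0.442 and Ier2 0.048.

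For ex/ex tumours over ex/ex non-tumour tissue, Ier2 was 0.196 with library totals, 0.001 with DESeq2 size factors and 0.010 without a filter. Hspa1a was 0.115 with library totals and, summed with Hspa1b, 0.326. With the B cell covariate Fos was 1.426, Jun 1.199, Ier2 0.364 and Hspa1a 0.305, and with both covariates 0.289, 0.559, 0.362 and 0.265. In B cell-poor tumours Fos was 0.846, Jun 1.289, Ier2 0.428, Nr4a1 -0.419 and Hspa1a 0.339. For WT tumours over WT non-tumour tissue, Hspa1a was 0.397 with limma-voom, 0.465 without WT non-tumour replicates 1 and 4 and 0.194 summed with Hspa1b. In B cell-rich tumours Fos was -1.622, Fosb -1.865, Jun -1.040, Junb -0.003, Atf3 -1.368, Ier2 -0.217 and Hspa1b -0.900.

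For ex/ex over WT non-tumour tissue, Junb was 0.087 with library totals, 0.002, 0.032, 0.084 and 0.007 with the B cell, epithelium, smooth muscle and joint covariates. Egr1 was 0.008 with library totals, 0.243 without male-looking libraries and 0.433 without WT replicates 1 and 4. Ier2 was 0.059 with library totals, 0.042 with limma-voom and 0.022 without those replicates, where Nr4a1 was 0.441. In the interaction Fosb was 0.018 and Egr1 0.010 with library totals, Egr1 0.010 with DESeq2 and 0.095 with limma-voom, where Atf3 was -0.696, Hspa1a -0.509 and Hspa1b -0.990. Without male-looking libraries Atf3 was -0.111 and Hspa1a -0.077. With the B cell covariate Fos was 0.753, Fosb 1.694, Jun 0.491, Junb 0.221, Ier2 0.082 and Nr4a1 -0.330, and with both covariates 0.097, 1.081, 0.066, 0.112, 0.068 and -0.183. With the epithelium covariate Fosb was 0.366. Without WT replicates 1 and 4 Atf3 was -0.036, Nr4a1 -0.604, Hspa1a -0.602 and Hspa1b -0.788.

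Leaving out 1 library at a time turned a sign in these results, given as lowest to highest. Egr1 in ex/ex over WT tumours ran from -0.192 to 0.075. In ex/ex over WT non-tumour tissue Junb ran from -0.142 to 0.064, Egr1 from -0.392 to 0.304 and Nr4a1 from -1.001 to 0.335. Ier2 in ex/ex tumours over non-tumour tissue ran from -0.093 to 0.027, and Hspa1a in WT tumours over non-tumour tissue from -0.570 to 0.270. In the interaction Fosb ran from -0.780 to 0.320, Egr1 from -0.369 to 0.294, Atf3 from -0.098 to 0.262, Nr4a1 from -0.469 to 0.834, Hspa1a from -0.349 to 0.433 and Hspa1b from -0.777 to 0.507. None of the sign changes in these leave-one-out fits passed the threshold. Depth limits Hspa1a and Hspa1b in all libraries and all 10 genes in WT non-tumour replicate 1.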
